A study of Rattus norvegicus with 24 samples.

Results

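The genes described here code for the proteins of the cytosolic ribosome. They were taken from the table by symbol: every row named Rpl or Rps followed by a number, with the usual suffix letters, together with Rpsa, Rplp0, Rplp1 and Rplp2. This gave 109 of the 17711 table rows, of which 68 belong to the large subunit and 41 to the small subunit. The rows carry 82 different symbols, 49 of the large and 33 of the small subunit, because 17 symbols stand on more than 1 row. The data come from RNA-seq of striatum, a forebrain region rich in dopamine input, and of whisker follicles, the large sensory hair follicles of the snout. Both tissues were taken from male Sprague-Dawley rats after the end of a protocol of daily sessions in which a lever press gave an intravenous infusion, either of methamphetamine (MA group, 6 rats) or of saline alone (SA group, 6 rats). All rats had first learned to press the lever for food, and only those that learned it went on, so the SA rats share that training and the surgery. The age of the rats is not given in the sources used here. Each library is 1 tissue of 1 rat, which gives 6 libraries per tissue and treatment and 24 in all.

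A ribosome joins a small subunit, which reads the messenger RNA, to a large subunit, which forms the peptide bond. Its proteins are made in nearly equal numbers in every cell, and their mRNAs are among the most abundant of growing tissues such as the hair matrix. Their genes share a pyrimidine-rich transcription start, so that the mRNAs begin with a terminal oligopyrimidine (TOP) tract, through which the mTORC1 kinase and the TOP-binding protein Larp1 control their translation. Mammalian genomes also hold many processed pseudogenes of these genes, whose sequence is close to that of the parent mRNA.

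To show this shared start, the 30 bases around the annotated start were read from RefSeq (build GRCr8) for 5 of the members with the smallest p in either tissue, for Rps24 and Rpl41, and for 2 pairs of paralogs. Each window holds the 10 bases before the start and the first 20 transcribed bases, 5′ to 3′, and capitals mark the longest unbroken run of C and T.
Rps9: cggccacgTTTCTCTTTgtcacgggcctga
Rpl27a: cttggtgggCTCCTCCCTCTTTCTTTTCTg
Rps24: ggTCCTCTTTTCCTCCTTTacagctcgggc
Rps7: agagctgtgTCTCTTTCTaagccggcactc
Rps21: agccaCTTCCTTTCTgtgttctccgtagac
Rpl13a: TCCTTTCCTaggcggctgccgaagatggcg
Rps27: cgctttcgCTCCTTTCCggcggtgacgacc
Rps27l: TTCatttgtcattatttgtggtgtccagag
Rpl22: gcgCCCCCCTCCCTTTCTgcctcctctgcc
Rpl22l1: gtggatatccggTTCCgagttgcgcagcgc
Rpl41: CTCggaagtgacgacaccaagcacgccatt
The windows lie in GRCr8 for Rps9 at chr1:74430418-74430447 (minus strand), Rpl27a at chr1:172974563-172974592 (plus strand), Rps24 at chr16:96507-96536 (plus strand), Rps7 at chr6:50999426-50999455 (minus strand), Rps21 at chr3:187724028-187724057 (plus strand) and Rpl13a at chr1:104748894-104748923 (minus strand). They lie for Rps27 at chr2:177964587-177964616 (minus strand), Rps27l at chr8:76443648-76443677 (plus strand), Rpl22 at chr5:168117951-168117980 (plus strand), Rpl22l1 at chr2:113683186-113683215 (plus strand) and Rpl41 at chr7:1563478-1563507 (minus strand). The FPKM table was made on rn6, another build, so these positions cannot be set against its rows. A promoter entry was found for 66 of the 82 symbols. A run of at least 8 pyrimidines stood in 41 of these 66 windows (62.1%) and in 3601 of all 33469 RefSeq promoter windows of the same length (10.8%). The members gave a single window per symbol, while all windows took every promoter entry, those of the members included. The letters CTTTCC, on either strand, were in 22.7% of the members' windows and in 2.4% of all windows. For CTCTTT, on either strand, the shares were 24.2% and 2.05%. On the coding strand alone they were 21.2% and 1.15% for CTTTCC, and 24.2% and 1.09% for CTCTTT. These letters can overlap one another and the longer runs. Among the genes shown, Rpl27a has a run of 20 pyrimidines across its start and Rps24 one of 17, whereas Rpl22l1, the paralog of Rpl22, has 4 and Rps27l, the paralog of Rps27, has 3. Rpl41, which codes for the smallest ribosomal protein, also has only 3 in this window. A marked run can lie wholly before the annotated start. That of Rpl13a, 9 bases from 10 bases before the start, does so and is not transcribed from that start.

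Levels are given in FPKM, fragments scaled to transcript length and to the mapped fragments of the library, so that genes of different length can be compared. In the striatum of SA rats, the highest row was that of Rps14, a protein of the small subunit platform, at 831 ± 49.5 FPKM (SD, n = 6). It was followed by Rpl41 at 785 ± 116 and by Rpl37, a small zinc-binding protein of the large subunit, at 723 ± 84.9. In the SA follicle the order was Rpl41 at 25570 ± 14465 FPKM, Rps14 at 13332 ± 6744 and Rplp0, the base of the ribosomal stalk, at 7996 ± 2955. The SDs of Rpl41 and Rps14 overlap in both tissues. The stalk protein Rplp1 was listed at 492 ± 80.1 FPKM in the striatum and 6106 ± 3122 in the follicle. Its partner Rplp2, on 2 rows, reached no more than 0.258 FPKM in a striatal SA library and 12.8 in a follicle SA library.

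Rplp2 was not alone in this. Taking the highest row of each symbol, 19 of the 82 symbols had a mean under 1 FPKM in the SA striatum, 12 of the large and 7 of the small subunit, while 29 had a mean of at least 100. In the SA follicle 6 symbols were under 1 FPKM and 54 at or above 100. The lowest symbols included proteins of every ribosome. Rps19, which is mutated in Diamond-Blackfan anemia, was listed at 0 on both rows in all 12 striatal libraries. Rpl39, at the exit of the peptide tunnel, was listed at 0 on all 3 rows in the 6 striatal SA libraries. Rpl35a had 4 of its 5 rows at 0 in all 24 libraries, and its remaining row did not exceed 0.451 FPKM in the striatum or 0.989 in the follicle. Rpl32 lay between 0 and 0.419 FPKM in the SA striatum and between 0 and 0.559 in the SA follicle. In all, 11 member rows were at 0 in every library and 66 were above 0 in every library. Since every ribosome needs these proteins, a value at or near 0 cannot be read as a low level of the mRNA.

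RefSeq names 1098 further loci after these 82 symbols, 873 of them pseudogenes, by adding "-ps" or an "l" and a number to the symbol. The reads of near-identical copies may be split or lost, depending on how the counting treated them, so the levels of members with many copies are uncertain. The median number of such loci was 14 for the 19 symbols under 1 FPKM in the SA striatum, 14.5 for the 34 symbols between 1 and 100, and 10 for the 29 symbols of at least 100. Rpl3, with 6 such loci, was at 411 FPKM. Rpl29 with 25 and Rpsa with 26 were at 316 and 159 FPKM. These 3 symbols were picked after their values were seen, and the part of such copies in the listed levels was not tested.

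**Figure D1:**
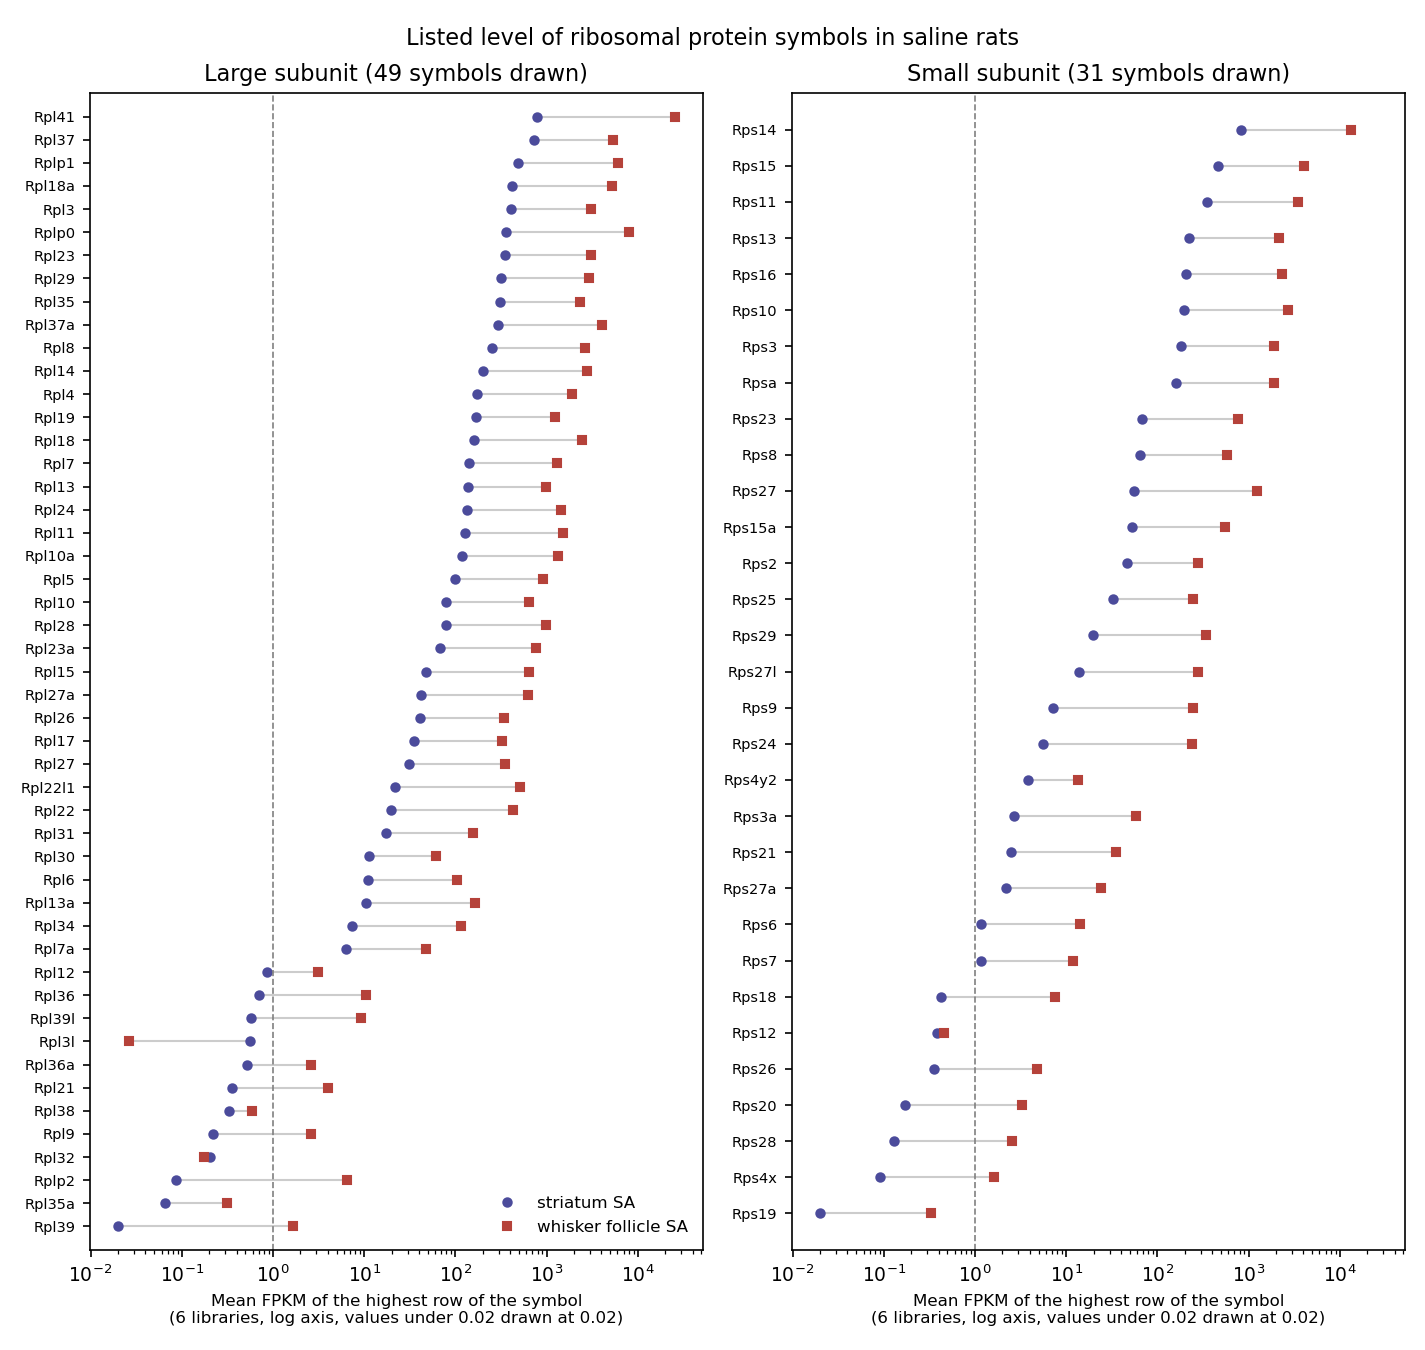
Mean FPKM of 80 of the 82 symbols in SA rats, by its highest table row, with striatum as circles and whisker follicle as squares on a log axis, large subunit on the left and small subunit on the right. The dashed line marks 1 FPKM, under which 19 symbols fall in the striatum and 6 in the follicle, with Rpl39 and Rps19, at 0 in the SA striatum, drawn at the low limit named on the axis, and of the symbols drawn all but Rpl3l and Rpl32 are higher in the follicle.

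Between the tissues of SA rats, ribosomal protein mRNAs were higher in the follicle. The median difference, follicle minus striatum, was 3.22 on the log2(FPKM + 1) scale over the 85 member rows with a mean of at least 1 FPKM in either tissue, against -0.30 over all 11509 rows tested. Called here means, by limma, an adjusted p below 0.05 together with a change of 1.5-fold or more. By this rule 83 of the 85 were called higher in the follicle and 0 lower. Over all rows 31.5% were called higher and 43.6% lower. Of these member rows, 17 had a mean under 1 FPKM over the 12 striatal libraries, passed the filter through the follicle only and so had to differ. Among the other 68, 66 were called higher, with a median of 3.35. These 68 include Rpl12, which at 0.864 FPKM in the SA striatum also passed through the follicle only. The FPKM sums of the libraries differ between the tissues, and with every library set to a common sum the members' median was 1.51 against -1.70 for all rows, with 74 members called higher, where 11.9% of all rows were called higher and 74.5% lower. Relative to the median of all rows, the members stood 3.51 higher as deposited, 3.21 with a common sum, 3.60 with a common median and 2.10 after quantile normalization.

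The members furthest above their own median were the 2 rows of Rps9 (5.92 ± 0.69 and 5.32 ± 0.51, difference ± SE), Rps24 (4.94 ± 0.40) and Rpl41 (4.79 ± 0.42). Rps9 sits at the mRNA entry of the small subunit, and Rps24 is another small subunit protein mutated in Diamond-Blackfan anemia. At the other end were the lower row of Rps13 (0.77 ± 0.18), a lower row of Rpl7a (0.83 ± 0.16), a lower row of Rpl9 (0.88 ± 0.28) and the highest row of Rpl39 (0.97 ± 0.42). Each of these 4 rows had a mean under 2 FPKM in the SA follicle, where the pseudocount of 1 holds a log2 difference down.

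Some pairs of paralogs could be compared within a library. Rps27 was 4.02 ± 0.59 times as high as Rps27l, a p53-responsive paralog, in the SA striatum and 4.27 ± 0.66 times in the SA follicle (SD, n = 6). In MA the ratio was 4.62 ± 0.93 in the striatum and 3.40 ± 0.32 in the follicle, and its ranges overlapped those of SA in both tissues. Rpl22 and Rpl22l1, paralogs of a large subunit protein that can replace each other, stood at a ratio of 0.92 ± 0.12 in the SA striatum and 0.85 ± 0.12 in the SA follicle. Rpl3l, the muscle form of Rpl3, was listed between 0.243 and 0.752 FPKM in the SA striatum, against 390 to 447 FPKM for Rpl3. In the SA follicle Rpl3l was at 0 in 5 of 6 libraries. Rpl7 and Rpl10, whose paralogs were not among the rows, were at 141 ± 7.90 and 79.8 ± 12.5 FPKM in the SA striatum. Rpl39l, a paralog of Rpl39, reached 4.16 to 15.6 FPKM in the SA follicle, above the highest Rpl39 row (0 to 6.19 FPKM) in each of the 6 libraries. Rps4x was listed at no more than 0.191 FPKM in the SA striatum, below its paralog Rps4y2 at 2.59 to 5.34. RefSeq names 17 further loci after Rpl39 and 12 after Rps4x, but 0 after Rps4y2. Rpl39l itself has no RefSeq entry under that symbol, so its copies could not be counted by name. Since the low values of Rpl39 and Rps4x cannot be read as low mRNA, neither order can be read as one of mRNA levels.

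The libraries moved as a whole for these genes. The score of a library is here the median deviation of the tested members from their means over the 12 libraries of the tissue, on the log2(FPKM + 1) scale. In the striatum the score ran from -0.27 to -0.02 in SA and from -0.35 to 0.66 in MA. MA library 4 was the highest of the 12 for 54 of the 68 tested members, and MA library 1 the lowest for 38. MA library 5 followed at a score of 0.34, and the other 3 MA libraries, at 0.005 to 0.045, lay close to the highest SA libraries. In the follicle the score ran from -0.96 to 0.89 in SA and from -0.69 to 0.19 in MA. SA library 0 was the lowest of the 12 for 66 of the 84 tested members, SA library 5 the highest for 51, and SA library 4 the highest for 17. The MA libraries thus lay inside the range of the SA libraries, which was wide because of SA library 0.

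Large and small subunit went together. The scores of the subunits differed by no more than 0.08 in any striatal library. In the follicle the difference of large minus small lay between -0.18 and -0.01 in the 6 SA libraries and between -0.01 and 0.11 in the 6 MA libraries. All members in a library share its depth and scaling. Across the 12 striatal libraries, the correlation of a member with the median of the others had a median of 0.93 over 68 members. Of these, 41 were above 0.9. In the follicle the median was 0.97 over 84 members, with 56 above 0.9. Few members did not follow: 8 in the striatum and 9 in the follicle were under 0.5, among them both rows of Rps9 in the striatum, Rps6 and Rpl30. Rpl30, a large subunit protein, varied most. It was listed at 0 in 3 striatal SA libraries and at 52.4 FPKM in another, and its follicle values ran from 0.45 to 270 FPKM in SA. As a share of all FPKM in a library, the summed members made up 2.5% to 3.13% (SA striatum), 2.32% to 4.35% (MA striatum), 4.55% to 15.1% (SA follicle) and 6.36% to 9.22% (MA follicle). Without MA library 1 the lowest MA share in the striatum was 2.99%, with SA libraries 3 and 5 above it. Without SA library 0 the SA follicle shares were 8.37% to 15.1%, and 5 of the 6 MA shares lay below them. In bulk tissue, more cells of a type rich in these mRNAs and more of the mRNA per cell cannot be told apart.

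**Figure D2:**
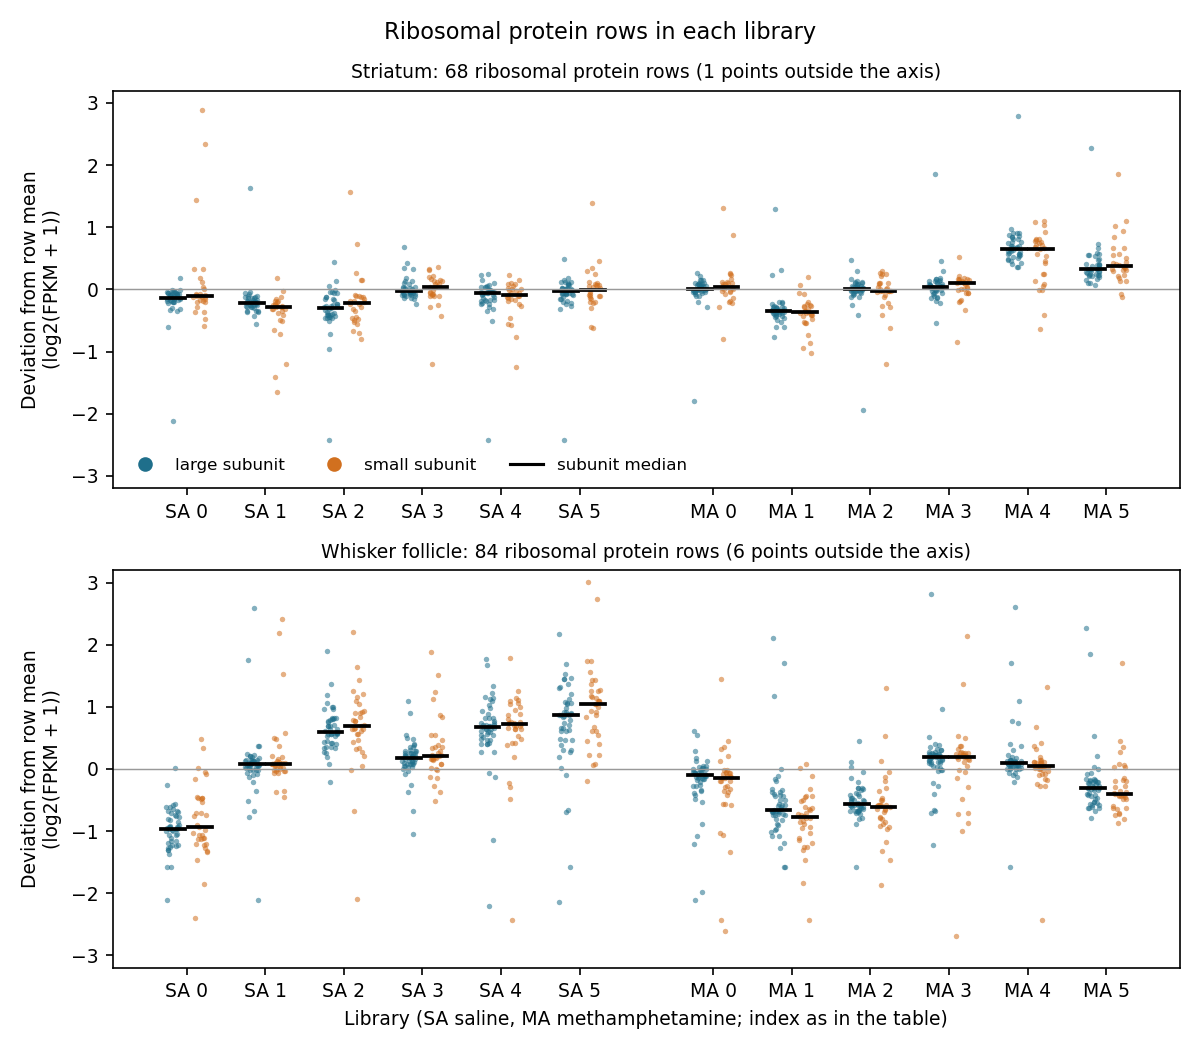
Deviation of each tested ribosomal protein row from its mean over the 12 libraries of a tissue, on the log2(FPKM + 1) scale, for every library, with large and small subunit beside each other and black bars at their medians. MA library 4 of the striatum and SA library 0 of the follicle stand apart from their groups, at member medians of 0.66 and -0.96, and 1 striatal and 6 follicle points lie outside the axis.

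In the striatum, most ribosomal protein rows were somewhat higher in MA than in SA, but no single row passed the test. Of 68 members tested, 63 had a difference above 0, with a median of 0.25 (0.25 for the 40 large and 0.22 for the 28 small subunit rows), against 0.00 over all 10607 rows, of which 50.5% were above 0. By limma 0 members were called, the smallest adjusted p being 0.577, and 0.00943% of all rows. At an unadjusted p under 0.05, 7 members were higher and 0 lower, which is 3 large and 4 small subunit rows, where 5.38% of all rows were higher and 2.88% lower.

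The smallest p was that of Rps7, a small subunit protein that also binds the p53 regulator Mdm2. Its values were 0.737 to 1.61 FPKM among SA libraries (median of 1.03) and 1.29 to 1.85 among MA libraries (median of 1.82), a level near the filter. The groups overlapped in part, and the difference was 0.34 ± 0.12 (SE; limma adjusted p = 0.577). Rps21, a small protein of the small subunit, was at 0.377 to 4.38 FPKM among SA libraries (median of 2.46) and 2.67 to 8.16 among MA libraries (median of 4.40), with a difference of 0.86 ± 0.31 (limma adjusted p = 0.577). Rpl27 of the large subunit was at 27.5 to 38.9 FPKM among SA libraries (median of 30.1) and 30.7 to 52.0 among MA libraries (median of 38.9), a difference of 0.35 ± 0.13 (limma adjusted p = 0.577). For both genes some MA libraries stood among the SA libraries. Rpl13a, the large subunit protein that leaves the ribosome as part of the interferon-gamma response, ranged from 7.09 to 14.0 FPKM among SA libraries (median of 10.4) and from 9.54 to 23.9 among MA libraries (median of 13.1). Rps16 was at 184 to 235 FPKM among SA libraries (median of 202) and 180 to 386 among MA libraries (median of 246), and Rpl35 at 253 to 354 among SA libraries (median of 308) and 278 to 573 among MA libraries (median of 360). In these 3 the 2 highest values were those of MA libraries 4 and 5. MA library 1 had the lowest MA value, which lay within the SA range for Rpl13a and Rpl35 and just under it for Rps16. Their differences were 0.47, 0.33 and 0.34, with limma adjusted p of 0.597, 0.603 and 0.603. The abundant members moved by a like amount without reaching that p, as for Rps14 at 768 to 899 FPKM in SA and 680 to 1538 in MA (difference 0.27 ± 0.16) and for Rpl41 at 647 to 939 in SA and 570 to 1554 in MA (0.32 ± 0.20). The 5 rows with a difference below 0 were both rows of Rps9, the lower row of Rps10, Rpl6 and Rps24.

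These counts rested on single libraries. Without MA library 1, 42 members were higher at an unadjusted p under 0.05 (9.63% of all rows), and the median was 0.34. Without MA library 4 or 5, or SA library 0, 2 or 4, 3 members were, and 4 without SA library 1. These are 4.41% to 5.88% of the members tested, where 3.25% to 5.48% of all rows were higher, and the median without MA library 4 was 0.15. Without MA libraries 3 and 4 together, an alternative chosen after the data were seen, 2 members were (2.61% of all rows) at a median of 0.14. No member was called under any of these. With every library set to a common sum, 241 of all rows were higher and 833 lower at that p, while 3 members were higher and 0 lower.

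Some markers of other cells also differed between the striatal groups. Over all rows, 5.38% were higher in MA at an unadjusted p under 0.05. All 3 tested erythrocyte markers (Hbb, the joined row of Hba1 and Hba2, Alas2) were higher in MA at an unadjusted p under 0.05, and the summed level of the 4 listed was 339 to 850 FPKM in SA and 606 to 5376 in MA. Of the 7 microglia markers, 3 (Tmem119, Csf1r, Cx3cr1) were higher at that p, and their sum was 221 to 336 FPKM in SA and 191 to 564 in MA. The microglia score was highest in MA libraries 4 and 5 (0.81 and 0.69), the libraries highest for ribosomal proteins, and was -0.505 in MA library 1. The sum of the 7 fibroblast and matrix rows was 10.6 to 18.5 FPKM in SA and 10.3 to 76.3 in MA, with both Col1a2 rows at 0 throughout. The highest erythrocyte sum and the highest fibroblast sum were those of MA library 3, whose ribosomal protein score was only 0.045. The 5 oligodendrocyte markers had a median difference of -0.25, and their highest score was in SA library 3 (0.762). The 8 markers of striatal projection neurons summed to 2294 to 5677 FPKM in SA and 2292 to 5347 in MA, none of them at 0. Their score was -0.213 and -0.904 in MA libraries 4 and 5, the lowest of MA, and 0.478 in MA library 1, the highest of MA. In SA it was -0.528 and -0.846 in libraries 3 and 4 and 0.158 to 0.518 in the other 4. The part of other cells in the result was not tested.

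In the whisker follicle the direction was the opposite. Of 84 members tested, 79 had a difference below 0, with a median of -0.49 (-0.46 for the 49 large and -0.58 for the 35 small subunit rows), against -0.01 over all 9138 rows, of which 48.3% were above 0. By limma 0 members were called, the smallest adjusted p being 0.465, and 0.0% of all rows. At an unadjusted p under 0.05, 14 members were lower and 0 higher, where 5.18% of all rows were lower and 5.25% higher. Of the 14, 12 were small and 2 large subunit rows; the difference between the subunits was not tested. With a common sum the members' median was -0.32 and that of all rows 0.14. At that scaling 609 of all rows were higher and 109 lower at an unadjusted p under 0.05, and 0 and 12 of the members. The study selected ribosome-related genes from these same follicle libraries, so the direction here is not independent evidence of it.

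Rps9 stood out in size. Its second table row was at 120 to 399 FPKM among SA libraries (median of 214) and 34.5 to 204 among MA libraries (median of 62.2), and its first row at 56.9 to 305 among SA libraries (median of 157) and 2.48 to 142 among MA libraries (median of 20.3). MA library 4 lay within the SA range on both rows and MA library 5 on the first row, and every other MA value was under all SA values. The differences were -1.66 ± 0.40 and -2.79 ± 0.81, each with a limma adjusted p of 0.465. The 2 rows may share reads. Rpl27a, a large subunit protein, was at 271 to 947 FPKM among SA libraries (median of 636) and 235 to 436 among MA libraries (median of 330), a difference of -0.86 ± 0.29 (limma adjusted p = 0.465). SA libraries 1 to 5 were above every MA library, and SA library 0 stood among the MA libraries. The lower row of Rps14 was at 1.63 to 13.8 FPKM among SA libraries (median of 8.45) and 1.99 to 4.80 among MA libraries (median of 2.46), with a difference of -1.06 ± 0.36 (limma adjusted p = 0.465). Its higher row was at 3291 to 22323 FPKM among SA libraries (median of 13905) and 4296 to 8339 among MA libraries (median of 6099), with a difference of -0.91 ± 0.42 (limma adjusted p = 0.465). On the higher row all SA libraries but library 0 were above every MA library.

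Rpl22l1 was at 127 to 796 FPKM among SA libraries (median of 496) and 138 to 374 among MA libraries (median of 222), a difference of -0.95 ± 0.41 (limma adjusted p = 0.465). Rpl22, its paralog, showed a like difference of -0.79 ± 0.39 but did not reach an unadjusted p under 0.05. Rpl13a was at 42.9 to 281 FPKM among SA libraries (median of 168) and 57.7 to 121 among MA libraries (median of 64.1), a difference of -0.87 ± 0.41 (limma adjusted p = 0.465), and did not reach that p either. In both Rpl22l1 and Rpl13a, SA library 0 had the lowest value of the 12. The other small subunit rows among the 14 included Rps27a, which is made as a fusion to ubiquitin, Rps24, Rps29, Rps27, Rps21, Rps26 and Rps18, with differences from -1.03 to -0.62. The 5 rows with a difference above 0 were Rpl30 (1.46 ± 1.51), Rpl12 (0.62 ± 0.39), Rps4y2, the lower row of Rps13 and a lower row of Rpl7a. Rpl41, the highest member, was at 6634 to 46578 FPKM in SA and 6643 to 19861 in MA, with a difference of -0.84 ± 0.46 (limma adjusted p = 0.466). Rplp0 was at 3404 to 10977 FPKM in SA and 3794 to 7025 in MA (-0.46 ± 0.30).

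**Figure D3:**
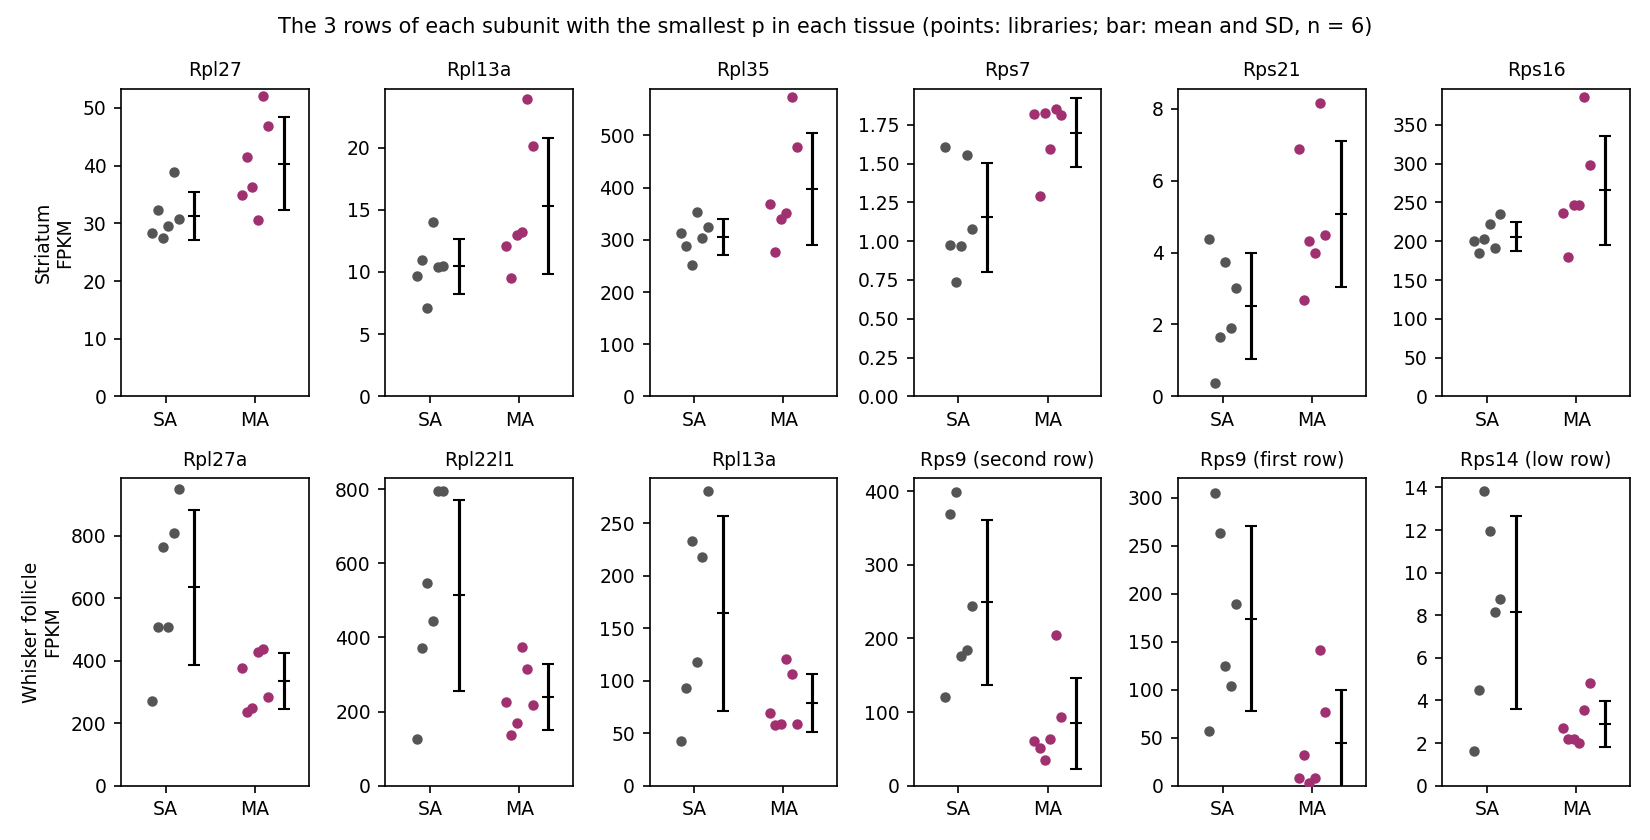
FPKM in each library for the 3 large and the 3 small subunit rows with the smallest p in the striatum (upper panels) and in the whisker follicle (lower panels), with mean and SD of 6 libraries at the right of each group and axes from 0. In the follicle panels the lowest SA point is that of library 0 in each row, and the groups overlap in every panel. The lower SD bar of the first Rps9 row in MA ends at the axis.

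The follicle result changed with SA library 0. Without it, 46 members were called lower by limma and 0 higher (6.05% of all rows were called lower), 67 were lower at an unadjusted p under 0.05 (21.2% of all rows), and the median was -0.73. With libraries weighted by their agreement with their group, 47 were called lower and 0 higher (5.12% of all rows were called lower). In the other direction, the 14 members lower at an unadjusted p under 0.05 became 4 without MA library 1 or SA library 4, 5 without MA library 2 or SA library 2 or 5, 7 without MA library 5 and 9 without MA library 0 or SA library 3. These are 4.71% to 10.8% of the members tested, where 2.6% to 4.42% of all rows were lower.

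Other markers differed between the follicle libraries as well. The 4 erythrocyte markers of SA library 0 summed to 3.38 FPKM, against 190 for the median SA library, a range of 3.38 to 427 in SA and 7.18 to 468 in MA. MA libraries 0, 1 and 5 were also low, at 7.18, 10.9 and 9.87 FPKM, with ribosomal protein scores of -0.121, -0.685 and -0.33. SA library 5, the highest for the members, had a score of 2.85 for oligodendrocyte markers, whose sum there was 66.5 FPKM, against an SA median of 7.52. The markers of striatal projection neurons were also highest there, with a sum of 25.2 FPKM against an SA median of 4.78. The 9 hair follicle markers summed to 41012 to 89094 FPKM in SA and 44251 to 96871 in MA, none at 0. Of these, 3 (Krt36, Krt83 and Lef1) were higher in MA at an unadjusted p under 0.05, as were 5.25% of all rows. Over the 9 markers, 7 had a difference above 0 and 2 below 0. The part of these differences in the result was not tested.

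Whether MA and SA differed in a different way in each tissue was tested with a limma interaction term on the 24 libraries. The fit took these as independent, though both tissues came from the same rats. It also shared its estimate of spread between the tissues. Within a group, the SD of the library score was 0.255 in the striatum and 0.537 in the follicle, so the p of this term are approximate. The median difference of the effects, follicle minus striatum, was -0.73 over 84 members and -0.01 over all 11533 rows. No member passed the adjusted p (smallest 0.433), and 0.00867% of all rows were called. At an unadjusted p under 0.05, 40 members (22 large and 18 small subunit rows) were lower in the follicle and 0 higher, where 6.81% of all rows were lower and 4.28% higher. Of the 84 members, 16 passed the filter on low values through the follicle only, with a median of -0.43 and 2 of the 40. The other 68, tested in both tissues, had a median of -0.75, and 38 of them were lower at that p, as were 7.64% of the 8212 rows tested in both. Among these 68 the smallest p were those of Rps21 (-1.66 ± 0.49) and Rpl13a (-1.34 ± 0.47). Of the 68, 60 were above 0 in the striatum and below 0 in the follicle (88.2%), as were 28.7% of the 8212 rows. The 40 became 19 to 25 without any of MA library 4 or 5 of the striatum, MA library 1 or 2 or SA library 2, 4 or 5 of the follicle, which is 22.6% to 29.8% of the members tested against 4.2% to 6.17% of all rows. Without SA library 0 of the follicle the 40 became 67 (15.7% of all rows were lower), and 51 members were called lower (5.73% of all rows). With weighted libraries 49 members were called lower (5.51% of all rows). With a common sum the members' median was -0.47 and that of all rows 0.19.

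**Figure D4:**
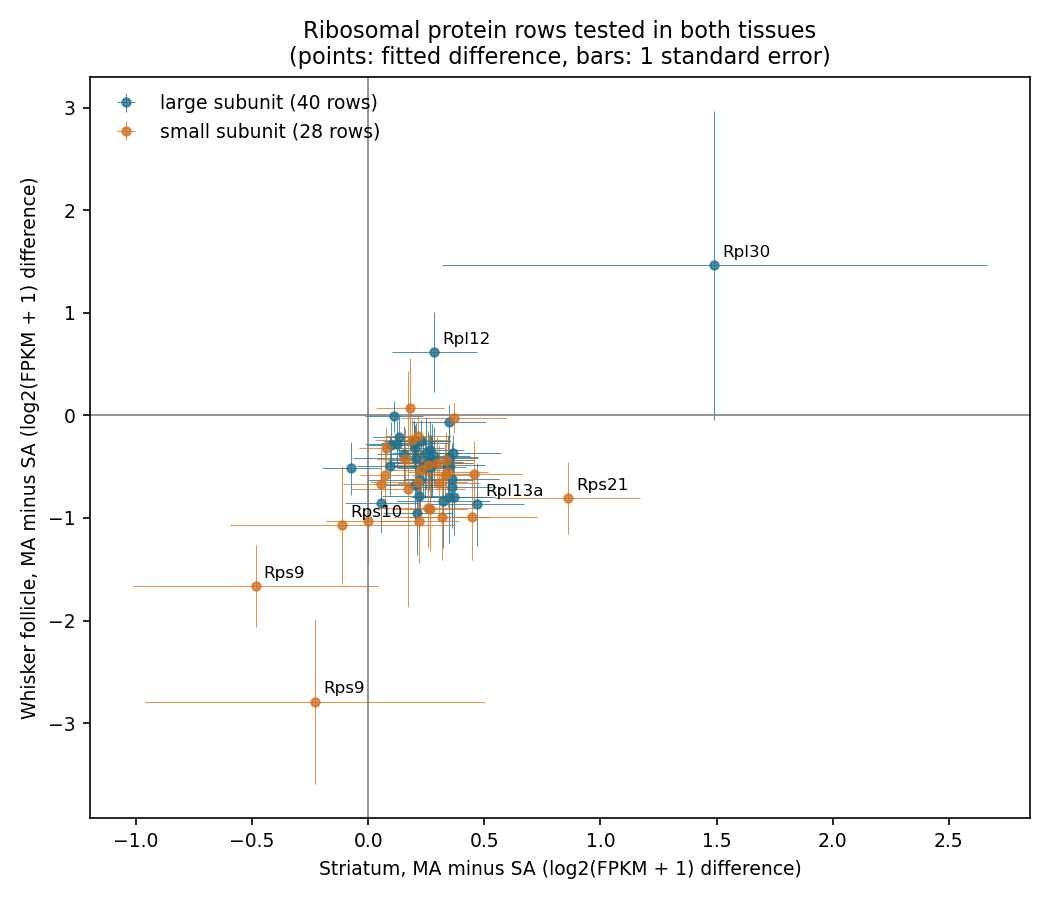
Difference of MA minus SA in the whisker follicle against that in the striatum, both on the log2(FPKM + 1) scale, for the 68 ribosomal protein rows tested in both tissues, with bars of 1 SE. Most points lie right of 0 and below 0, while both Rps9 rows lie left of 0 and Rpl30 and Rpl12 lie above 0.

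The 17 symbols on more than 1 row show how far a value depends on the row. They took 44 rows, and for 7 of them the highest row had a mean under 1 FPKM in the SA striatum. At least 2 rows were tested for 4 of these symbols in the striatum and for 8 in the follicle. Rpl13 had rows of 997 ± 213 and 453 ± 285 FPKM in the SA follicle. Its higher row went from 621 to 1174 FPKM over the SA libraries and its lower row from 92.1 to 890, and the MA differences were -0.07 ± 0.17 and -0.80 ± 0.45. In the striatum both rows had a difference of 0.35 ± 0.16. Rps10 stood at 2711 ± 1270.4 and 111 ± 127 FPKM in the SA follicle, with differences of -0.66 ± 0.37 and -1.07 ± 0.58. In the striatum its higher row had a difference of 0.30 ± 0.18 and its lower row -0.11 ± 0.48. Rpl10a, at 1342 ± 311 and 289 ± 112 FPKM in the SA follicle, differed by -0.21 ± 0.20 and -0.49 ± 0.28. The lower row had the larger difference in each of these 3 follicle pairs. The difference between the rows was not tested.

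Rps14 and Rps13 had rows 1639.7 and 1708 times apart in their SA follicle means. The lower row of Rps13 had a difference of 0.19 ± 0.23 and the higher -0.21 ± 0.22. Rps6, the S6 kinase substrate, had a row at 0 in 4 follicle libraries and at 0.267 to 42.5 FPKM in the others, with a difference of -0.72 ± 1.15. Rpl7a was at 47.4 ± 10.2 FPKM in the SA follicle and 46.4 ± 5.05 in MA on its highest row (-0.01 ± 0.15). Rpl8 and Rpl37 were read from a single expressed row each, at 2650 ± 1003 and 5384 ± 2503 FPKM in the SA follicle, and their other rows were at or near 0. Rps20 and Rps28, at most 5.45 and 6.11 FPKM in the follicle, were listed at 0 in 1 and 2 of the 12 follicle libraries. Rpl9 reached 5.14 FPKM on its highest row, and Rpl38 2.23. The joined row of Rpl37a and its pseudogene Rpl37a-ps1 was at 292 ± 22.2 FPKM in the SA striatum and 394 ± 139 in MA (0.36 ± 0.19). With the rows of each symbol summed before the fit, 8 of 64 symbols or rows were higher in the striatum at an unadjusted p under 0.05 and 12 of 76 lower in the follicle, as were 571 of 10591 and 472 of 9121 of all.

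**Figure D5:**
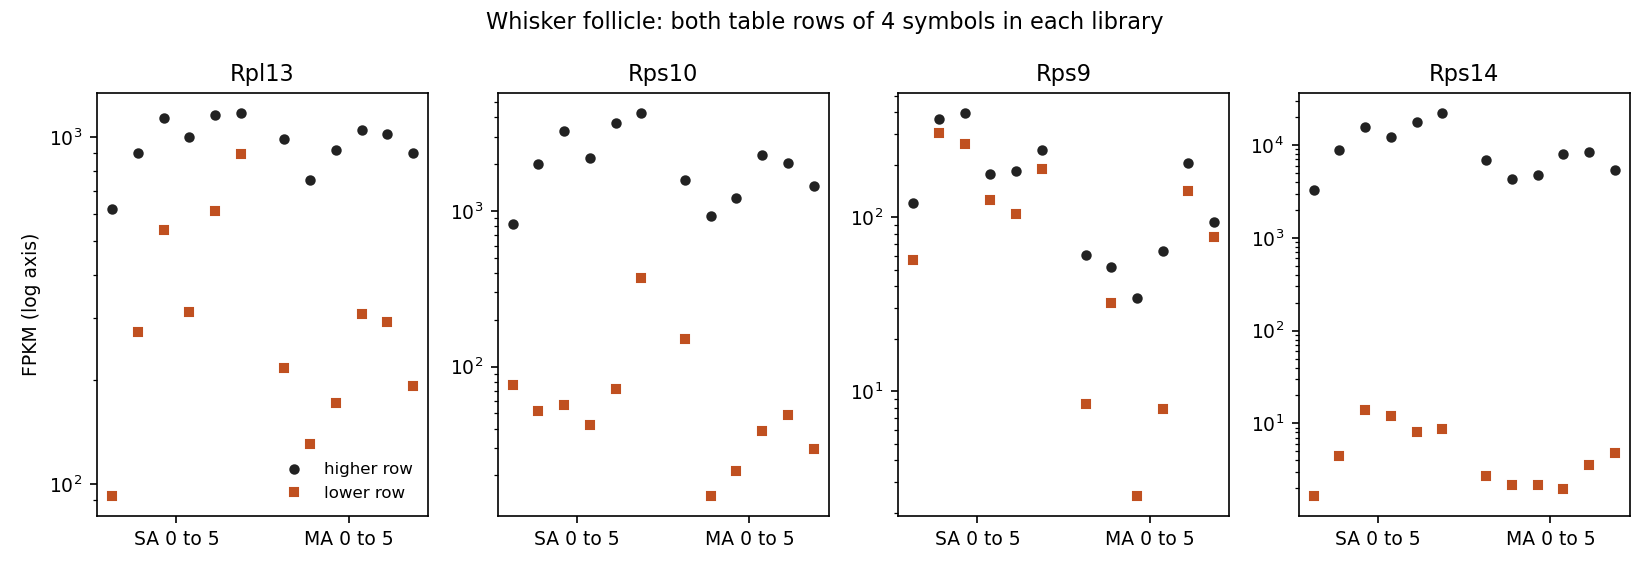
FPKM on a log axis of both table rows of Rpl13, Rps10, Rps9 and Rps14 in the 12 whisker follicle libraries, SA to the left and MA to the right, with the higher row as circles and the lower as squares. The rows of Rps14 are 1639.7 times apart in the SA means, whereas those of Rps9 come close to each other in several libraries.

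Genes that work with the ribosome were read from further lists. Of the ribosomal proteins with other symbols, Fau, which is made as a fusion to a ubiquitin-like protein, had a difference of 0.23 ± 0.14 in the striatum and -0.48 ± 0.26 in the follicle. Gnb2l1 (Rack1), a scaffold protein on the small subunit, had 0.22 ± 0.10 and 0.10 ± 0.13. Neither passed an unadjusted p under 0.05 in either tissue. Over all rows, 5.38% were higher at that p and 2.88% lower in the striatum, and 5.25% higher and 5.18% lower in the follicle. Among 18 elongation factors and other TOP mRNAs, the median was 0.12 in the striatum and -0.38 in the follicle. In the striatum 2 were higher at that p, Eef2 (0.25 ± 0.11), the translocase of elongation, and Pabpc1 (0.19 ± 0.09), and 0 lower. In the follicle 2 were higher, Eif3h (1.20 ± 0.30), at 2.32 to 14.6 FPKM in SA and 15.6 to 24.8 in MA, and Eef1a1 (0.78 ± 0.35), and 0 lower. Eif3h is a subunit of an initiation factor, and its groups did not overlap. Its difference had the opposite sign to the members' median. Tpt1, a classic TOP mRNA, had -0.65 ± 0.30.

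Ribosome assembly genes had medians near 0 in both tissues. The counts of each list here stand beside the shares of all rows at an unadjusted p under 0.05. These were 5.38% higher and 2.88% lower in the striatum, and 5.25% higher and 5.18% lower in the follicle. The 28 tested biogenesis genes had a median of -0.04 in the striatum, with 0 higher and 2 lower at an unadjusted p under 0.05, Taf1d (-0.40 ± 0.14) and Gnl3 (-0.20 ± 0.09). In the follicle their median was -0.06, with 2 higher, the nucleolar protein Ncl (0.31 ± 0.12) and Ltv1 (0.25 ± 0.11), and 0 lower. Of the mTORC1 and S6 kinase genes, 4 of 11 were higher in the striatum at that p, among them Tsc2 (0.33 ± 0.11), an inhibitor of the pathway, Eif4ebp1 (0.53 ± 0.18), a translation repressor, and Rheb (0.20 ± 0.08), the activator of mTORC1. The fourth was Eif4ebp2 (0.27 ± 0.12). In the follicle 0 of 10 were. Mitochondrial ribosomal proteins had a median of 0.00 in the striatum (5 higher and 2 lower of 66, with Mrpl42 at 0.32 ± 0.12, Mrps28 at -0.36 ± 0.11 and Mrps31 at -0.21 ± 0.08) and -0.32 in the follicle (0 higher and 6 lower of 66, with Mrpl13 at -0.53 ± 0.18, Mrpl32 at -0.42 ± 0.17 and Mrps33 at -0.80 ± 0.33). Respiratory subunits stood at 0.11 in the striatum (6 higher of 71, such as Cox7c at 0.28 ± 0.11) and -0.38 in the follicle (5 lower of 70, such as Atp5l at -0.79 ± 0.33). Proteasome subunits stood at -0.00 in the striatum (2 higher and 1 lower of 37, with the immunoproteasome subunits Psmb10 at 0.36 ± 0.12 and Psmb9 at 0.40 ± 0.14) and -0.13 in the follicle (0 higher and 1 lower of 37). No gene of these lists passed an adjusted p under 0.05 in limma. The scores of the mitochondrial ribosomal proteins and of the respiratory subunits were lowest in follicle SA library 0 as well, at -0.65 and -0.78, and that of the proteasome subunits at -0.475.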

How the data were processed

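RNA of striatum and whisker follicles was sequenced from 6 MA and 6 SA rats, with polyA selection. The authors deposited FPKM values of 24 libraries. The paper names Cutadapt, TopHat2, Cufflinks and rn6, and the submitters' notes list rn6, Cufflinks 2.2.1, STAR 2.6.0c and bcl2fastq. No source used here gives the annotation or how multiply mapped reads were counted. The paper gives only an approximate number of reads per sample. FPKM hold no read counts, so the depth of each single library is unknown and the error given is the spread between libraries. The column indices, 0 to 5, are not tied to rat numbers. All differences are two-sided limma 3.58.1 tests (R 4.3.3, intensity trend) on log2(FPKM + 1), which shrinks the change of low genes, over rows with a mean of at least 1 FPKM in the tissue, or in either tissue for the tissue contrast and the interaction, with Benjamini-Hochberg adjustment over all rows. The fit was tested on simulated data with independent noise in each row, so shifts shared by the rows of a library were not covered. There, limma gave an adjusted p under 0.05 to 70% of rows changed by 1.5-fold in the striatum and 38% in the follicle. Of all calls, 3.76% and 7.19% were false. In the data, 0 libraries were identical. The members and lists were chosen with earlier results of these data known. Rows named were the 3 of each subunit with the smallest p per tissue, the extremes in level and tissue contrast, paralog pairs, symbols on several rows, members listed at 0 in a library, and the smallest p of the interaction and the other lists, and others were named after their values were seen. Some items are not reported here. The alternatives tried are given in the closing section.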

Additional observations from a re-analysis of the deposited data

Results flagged for a closer look

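Of 54 groups of 6 libraries checked for a single outlying value, over the scores of the members and the rows with the smallest p, 1 was marked, where chance marks about 1 in 20 groups. The FPKM of Rpl27 in follicle SA library 0 was 143.3, while the other 5 SA libraries lay between 308 and 462. The gap on the log2(FPKM + 1) scale was 0.653 of the whole range. The same library was the lowest of the 12 for 66 of the 84 tested ribosomal protein rows.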

How the results depend on the processing

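Under the alternatives of processing (pseudocounts of 0.1 and 0.5, no filter or a mean of at least 5 FPKM, quantile normalization, a common median or sum, no trend, weighted libraries, summed rows of a symbol, adjusted p alone, the fold as a ratio of means, leaving out each library), 564 values kept their direction and side of the threshold or moved little, 36 counts moved by over 1.5 times, 12 values for single rows passed the threshold, and 0 reversed. The 7 members higher in the striatum at an unadjusted p under 0.05 became 3 with a common median, 3 with a common sum, 3 with quantile normalization, 12 with weighted libraries, 3 to 42 on leaving out a library, and 2 without MA libraries 3 and 4, an alternative added after seeing the data. In the follicle, the 0 members called became 47 with weighted libraries and 0 to 46 on leaving out a library, and the 14 lower at an unadjusted p under 0.05 became 68 with weighted libraries and 4 to 67 on leaving out a library. The 12 single-row values that passed were 6 follicle rows, each with weighted libraries and without SA library 0. For the interaction, the 40 became 24 with a common sum, 26 with quantile normalization, 67 with weighted libraries and 19 to 67 on leaving out a library. Between tissues, 1 member was called lower in the follicle with no filter. The smallest adjusted p of a member ran from 0.186 to 1 in the striatum, 0.0129 to 0.805 in the follicle and 0.00272 to 0.661 for the interaction. The cause of these changes was not tested. No paired analysis was possible because the column indices are not tied to the rat numbers of the labels. FPKM give no depth of a single library, so counting error could not be set beside low values.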
